A study of Mus musculus with 4 samples.

Results

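The 39 genes described here encode enzymes and membrane proteins of the lysosome, the cubilin uptake complex of early enterocytes, and the transcription factors that switch lysosomal genes on. They were chosen by function, from a list of symbols, and all 39 were matched among the 55416 gene identifiers of the tables. Of them, 38 passed the filter on low counts that left 14271 genes to test, and Mitf did not. RNA-seq was run on 4 libraries of small intestinal organoids from C57BL/6 mice, 2 from adults aged 4 to 8 weeks and 2 from embryos at stage E15.5. Organoids are epithelial cells grown in a gel, here in the same commercial organoid medium for both ages, and apart from age no treatment or allele is named. How many animals or cultures stand behind the replicates is not given. The p-values thus reflect only the spread between the 2 libraries at each age, estimated in part across genes, and that spread may be technical. A library held 10862147 to 13061585 estimated counts. Epithelial markers were high in every library, with a summed level over 9 genes of 4532 to 4547 CPM (counts scaled to library size) in adult and 7006 to 7037 CPM in fetal libraries. Of the 9, 4 were called higher in fetal organoids, the keratins Krt8, Krt18 and Krt19 among them, and 4 lower, Epcam and Vil1 among them.

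Lysosomes are acidic compartments in which cathepsins cut proteins, glycosidases trim sugar chains and lipases break down lipids. Enterocytes of the fetal and suckling gut take up luminal protein through the receptors cubilin and megalin and digest it in large lysosomal vacuoles, an ability that is lost at weaning. The MiT/TFE factors Tfeb, Tfe3 and Mitf bind the CLEAR element, a sequence built around the letters CACGTG, in the promoters of many lysosomal genes.

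The promoters are shown first, with counts of those that carry the letters that these factors read. RefSeq promoters of build GRCm38.p6, from 250 bases before to 50 after each start, were matched by symbol for 35 of the 39 genes (not for Asah1, Ctsb, Ctsh and Npc1). CACGTG, which reads the same on both strands, was found in 10 of the 35 (28.6%), beside 8.09% of all 27025 genes in the table and 11.7% of the 10131 tested genes matched. TCACGTG, searched on both strands and containing the shorter motif, was found in 9 of the 35 (25.7%), beside 4.29% of all genes and 6.91% of tested genes. TCACGTGA, which contains both, was found in Ctsa, Ctsd and Gla, 8.57% of the 35 beside 1.12% and 2.12%. Lamp1, the most abundant lysosomal membrane protein, held CACGTG 4 times within 76 bases that reach 3 bases past its start, chr8:13159088-13159163 on the plus strand, printed here 5′ to 3′ with the motif in capitals.
Lamp1: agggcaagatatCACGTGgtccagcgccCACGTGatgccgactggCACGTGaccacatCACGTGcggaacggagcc
The 250 bases before the start of Ctsd, at chr7:142387828-142388077 on the minus strand, held it 2 times.
Ctsd: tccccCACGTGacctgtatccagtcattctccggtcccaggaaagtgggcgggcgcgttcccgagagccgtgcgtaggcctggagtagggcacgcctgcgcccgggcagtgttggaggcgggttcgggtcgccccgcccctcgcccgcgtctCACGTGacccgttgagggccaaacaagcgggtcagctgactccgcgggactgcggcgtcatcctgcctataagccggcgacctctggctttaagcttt
Shorter windows show a match in other genes, with an adjoining T before or A after it also in capitals. They lie at chr12:111271058-111271087 (Amn, plus), chr2:164833749-164833778 (Ctsa, plus), chr11:119267811-119267840 (Gaa, plus), chr9:114401018-114401047 (Glb1, plus), chr12:102439124-102439153 (Lgmn, minus), chr11:101070009-101070038 (Naglu, plus) and chrX:134601182-134601211 (Gla, minus).
Amn: gccccgcccggTCACGTGgggccctcggag
Ctsa: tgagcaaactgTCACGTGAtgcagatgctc
Gaa: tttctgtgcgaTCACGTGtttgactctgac
Glb1: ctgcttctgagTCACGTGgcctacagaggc
Lgmn: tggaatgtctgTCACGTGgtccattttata
Naglu: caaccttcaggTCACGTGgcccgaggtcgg
Gla: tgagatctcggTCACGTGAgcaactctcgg
The tenth gene, Ctsl, held CACGTG with neither flanking letter. Of these 10 genes, Ctsd, Ctsl, Lgmn and Naglu were higher in fetal organoids, Amn, Ctsa, Gaa and Glb1 were lower, and Gla and Lamp1 were not called, so the letters were found in genes of each kind.

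Lysosomal genes moved in both directions between fetal and adult organoids. A few cathepsins and glycosidases and the ceramidase Asah1 were between 2-fold and 10-fold higher in fetal organoids, most other enzymes and membrane proteins differed by less than 1.5-fold, and the uptake receptors Cubn and Lrp2 rose while their partner Amn fell. Of the 38 tested genes, 15 were higher and 18 lower in fetal organoids (quasi-likelihood F-test of edgeR, adjusted p under 0.05 by Benjamini-Hochberg), 39.5% and 47.4% beside 33.9% and 32.7% of all genes tested. With a change of at least 2-fold as well, 9 were higher and 4 lower, 23.7% and 10.5% beside 13.6% and 11.6% of all genes. Most of the lower calls were small, since 12 of the 18 were under 1.5-fold. The median log2 fold change was -0.08 over the 38 genes and 0.01 over all genes tested.

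The small differences depended on how libraries were scaled. Mitochondrial transcripts took 17.5% and 17.6% of adult counts and 6.98% and 7.82% of fetal counts, and TMM scaling, used throughout unless another is named, allows for such a difference in make-up. With library totals in place of TMM factors, 18 of the 38 genes were higher and 10 lower (47.4% and 26.3%, beside 48.9% and 20.8% of all genes), and the median of all genes moved to 0.25. On TPM, the authors' values per gene length (limma on log2(TPM + 1)), 20 were higher and 6 lower (52.6% and 15.8%, beside 49.6% and 12.8% of all genes), and the median of all genes was 0.36. Under these scalings the shares of the 38 genes were thus near those of all genes. The 13 genes called with at least a 2-fold change kept their direction under each of these scalings, and 12 of them stayed called on TPM, Tfeb being the exception.

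**Figure D1:**
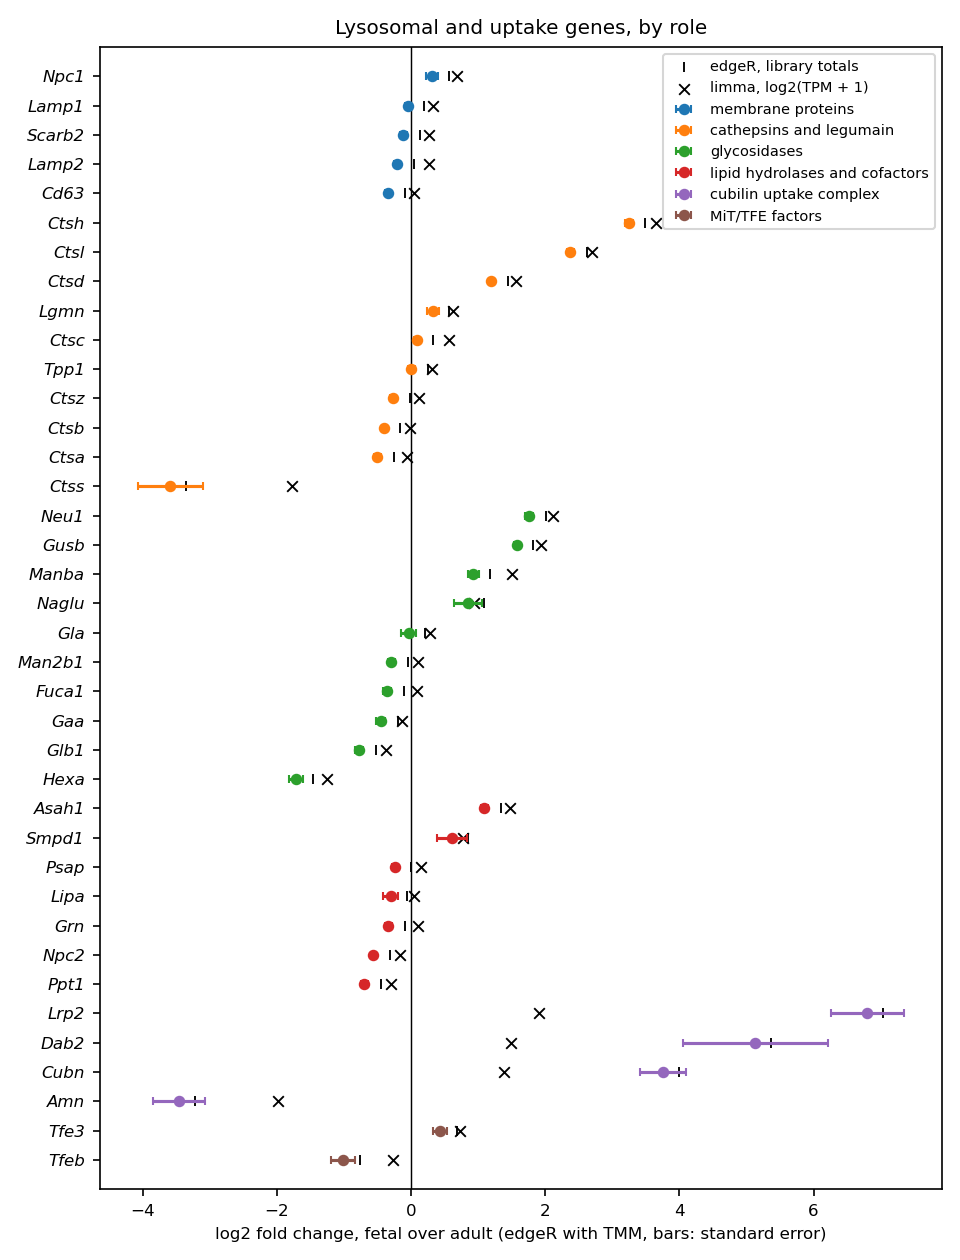
Log2 fold change (x axis, fetal over adult) of the 38 tested genes, grouped by role along the y axis; points are edgeR estimates with TMM scaling and bars their standard errors, vertical ticks show library totals, and crosses show limma on log2(TPM + 1). Ctsh, Ctsl, Neu1 and Gusb lie far to the right of 0 under all 3, whereas points near 0, such as Lamp2 and Psap, shift from left to right of it.

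The membrane proteins of the lysosome differed little between the ages. Lamp1 and Lamp2 line the lysosomal membrane, Scarb2 carries glucocerebrosidase to it, Cd63 is a tetraspanin of late endosomes, and Npc1 exports cholesterol. Lamp1 stood at 402 and 387 CPM in adult libraries against 373 and 389 CPM in fetal ones, so that the groups overlapped (log2 fold change -0.05 ± 0.03 SE, adjusted p = 0.203). Scarb2 was not called either (log2 fold change -0.11, adjusted p = 0.0949), while Lamp2 (-0.21) and Cd63 (-0.34) were called lower and Npc1 (0.32) higher, all by less than 1.5-fold. On TPM the direction turned for Lamp1 (0.33), Lamp2 (0.26), Cd63 (0.04) and Scarb2 (0.26). With library totals it turned for Lamp1 (0.19), Lamp2 (0.04) and Scarb2 (0.13). With DESeq2 size factors and with upper-quartile scaling the directions of these genes and the call of Lamp2 (-0.2 in each) were kept. The directions thus depend on the scaling. The call of Npc1 was lost without adult replicate 1 (adjusted p = 0.0668).

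Among the proteases, 3 cathepsins rose strongly while the others moved little or fell. Ctsh, an aminopeptidase of the papain family, had 31.6 and 27.7 CPM in adult libraries against 285 and 281 CPM in fetal ones. The fetal libraries were thus close to each other and far above the adult ones, a 9.49-fold rise (log2 fold change 3.25 ± 0.06 SE, adjusted p = 7.51e-14). Ctsl, an endopeptidase of the same family, had 39.2 and 38.6 CPM in adult and 197 and 207 CPM in fetal libraries. It rose 5.19-fold (log2 fold change 2.38 ± 0.05 SE, adjusted p = 7.59e-13), with no overlap of the groups. Ctsd, the main aspartic protease of the lysosome, had 115 and 113 CPM in adult and 268 and 255 CPM in fetal libraries, a 2.29-fold rise (log2 fold change 1.195 ± 0.04 SE, adjusted p = 4.64e-11). In GENCODE M21, exons of Ctsd overlap those of the gene model Gm49369 on the same strand, between which estimated counts are split. The sum of both was 166 and 168 CPM in adult and 382 and 382 CPM in fetal libraries, so the rise was also seen with the split undone.

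Ctss, a cathepsin best known from antigen-presenting cells, went the other way. It had 49 and 38 counts (4.29 and 3.82 CPM) in the adult and 4 and 5 counts (0.279 and 0.381 CPM) in the fetal libraries, 12.04-fold lower in fetal (log2 fold change -3.59 ± 0.49 SE, adjusted p = 5.57e-06). Both groups were low, and they did not overlap. Among 14 macrophage markers, of which 5 were tested, Cd68, Lyz2, Mrc1 and Cd14 were higher in fetal organoids (Cd68 had 19 and 23 counts in adult and 102 and 94 in fetal libraries, Mrc1 6 and 9 against 78 and 99) and Itgam was lower. Ptprc, the pan-leukocyte antigen, had 1 count in adult replicate 1 and 0 elsewhere, and Adgre1 had 2 counts in fetal replicate 2 and 0 elsewhere. Itgam, an integrin of myeloid cells, had 28 and 15 counts in adult and 3 and 1 in fetal libraries, and the part of these genes' source in the fall of Ctss was not tested.

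Of the remaining proteases, Ctsb, an abundant endopeptidase, had 309 and 302 CPM in adult and 232 and 229 CPM in fetal libraries, a fall of less than 1.5-fold (log2 fold change -0.40 ± 0.03 SE, adjusted p = 2.21e-07). On TPM it did not differ beyond its spread (-0.02, adjusted p = 0.705). Ctsa, which protects Neu1 and Glb1 in a complex, was lower by TMM (-0.50) and not called on TPM (-0.06). Ctsz, a carboxypeptidase, was lower by TMM (-0.27) and turned to 0.12 on TPM. Lgmn, an asparaginyl endopeptidase that processes other cathepsins, was higher (0.32, adjusted p = 0.008), a call that DESeq2 did not make (adjusted p = 0.0687). Ctsc, which activates serine proteases, and Tpp1, a tripeptidyl peptidase, were not called (0.09 and 0.00), whereas Ctsc was called higher on TPM (0.56, adjusted p = 0.000948) and both were with library totals (Ctsc 0.33, adjusted p = 2.81e-05, and Tpp1 0.25, adjusted p = 0.00132). In the list of cathepsin inhibitors Cstb rose from 18.8 and 17.2 to 38.99 and 37.8 CPM, Cst3 fell from 32.95 and 37.4 to 22.3 and 20.3 CPM, a call that was lost on TPM (adjusted p = 0.113), and Cst6 was not tested.

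**Figure D2:**
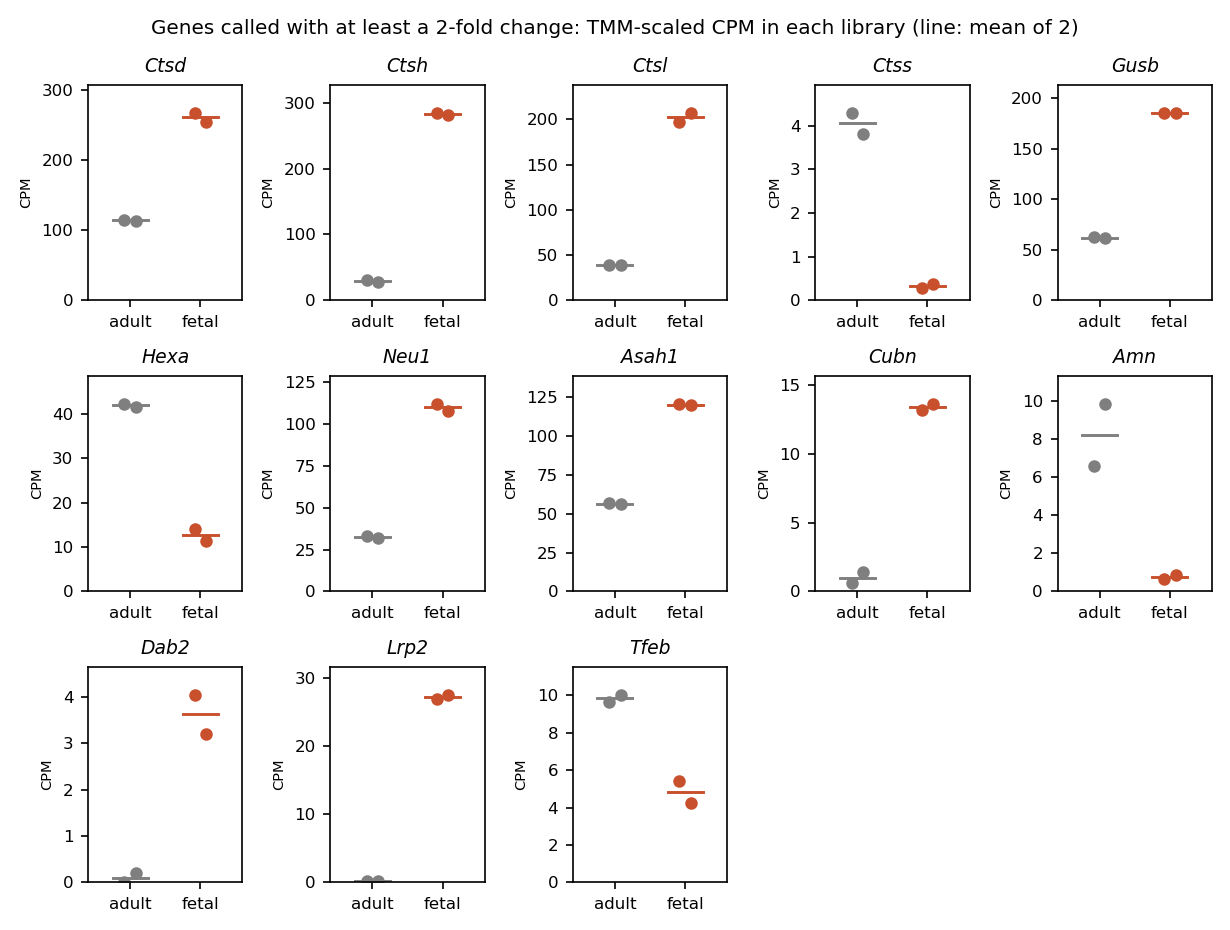
TMM-scaled CPM (y axes, from 0, a scale for each gene) in the adult (grey) and fetal (red) libraries for the 13 genes called with at least a 2-fold change; each point is 1 library and each line the mean of 2. In each panel the adult and fetal points do not overlap, as in 82.7% of all genes tested, with Ctsh at 27.7 to 31.6 against 281 to 285 CPM.

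The glycosidases also moved in both directions, with 4 higher and 5 lower of 10, beside 33.9% and 32.7% of all genes. With library totals the counts were 4 and 3 (beside 48.9% and 20.8% of all genes), and on TPM 4 and 2 (beside 49.6% and 12.8%). Neu1, the sialidase that removes terminal sialic acids, had 32.95 and 32.03 CPM in adult and 112 and 108 CPM in fetal libraries, 3.39-fold higher in fetal (log2 fold change 1.76 ± 0.06 SE, adjusted p = 5e-11). Gusb, the beta-glucuronidase, had 62.7 and 61.7 CPM in adult and 185 and 186 CPM in fetal libraries, 2.98-fold higher (log2 fold change 1.58 ± 0.04 SE, adjusted p = 7.07e-12). Manba, the beta-mannosidase, had 22.2 and 25.1 CPM in adult and 47.1 and 42.4 CPM in fetal libraries (log2 fold change 0.93 ± 0.08 SE, adjusted p = 7.01e-07). In these genes both fetal libraries lay above both adult ones. Naglu, which acts in heparan sulfate breakdown, was low, at 4.91 and 5.22 CPM in adult and 10.6 and 7.46 CPM in fetal libraries (log2 fold change 0.84 ± 0.21 SE, adjusted p = 0.00312). Its fetal values were the farther apart, and the log2 fold change was 0.56 to 1.06 with single libraries left out.

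Hexa, the alpha subunit of beta-hexosaminidase, which degrades GM2 ganglioside, had 42.2 and 41.5 CPM in adult and 14.1 and 11.3 CPM in fetal libraries. It was 3.28-fold lower in fetal (log2 fold change -1.72 ± 0.10 SE, adjusted p = 8.93e-09). Both fetal libraries lay below both adult ones. Glb1, the beta-galactosidase, had 54.3 and 53.4 CPM in adult and 31.7 and 31.4 CPM in fetal libraries (log2 fold change -0.77 ± 0.06 SE, adjusted p = 2.78e-07). Its exons overlap those of Tmppe on the same strand, and the sum of both genes was 61.1 and 62.1 CPM in adult and 40.5 and 39.1 CPM in fetal libraries. Gaa, the acid alpha-glucosidase (-0.45), Fuca1, the fucosidase (-0.36), and Man2b1, the alpha-mannosidase (-0.30), were called lower by less than 1.5-fold. On TPM, Fuca1 (0.08) and Man2b1 (0.10) turned and Gaa was not called (-0.13). Gla, the alpha-galactosidase, was not called (-0.04, adjusted p = 0.78).

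Among the lipid hydrolases and their helper proteins 2 were higher and 5 lower of 7, beside 33.9% and 32.7% of all genes. The counts were 2 and 2 with library totals (beside 48.9% and 20.8% of all genes) and 3 and 2 on TPM (beside 49.6% and 12.8%). Asah1, the acid ceramidase, had 56.6 and 56.1 CPM in adult and 121 and 120 CPM in fetal libraries, 2.13-fold higher in fetal with libraries of a group almost equal (log2 fold change 1.09 ± 0.05 SE, adjusted p = 1.03e-09). Smpd1, the acid sphingomyelinase that produces ceramide, had 7.19 and 5.12 CPM in adult and 7.76 and 11.3 CPM in fetal libraries (log2 fold change 0.61 ± 0.22 SE, adjusted p = 0.0272). The nearest adult and fetal libraries of Smpd1 were close, and the call was lost without adult replicate 2 (adjusted p = 0.133) and without fetal replicate 2 (adjusted p = 0.239). Ppt1, which removes palmitate from proteins, had 82.5 and 82.7 CPM in adult and 51.4 and 50.4 CPM in fetal libraries (log2 fold change -0.70 ± 0.05 SE, adjusted p = 1.96e-07). Npc2, which hands cholesterol to Npc1, was also lower (-0.56, adjusted p = 3.03e-08). On TPM it was at -0.16, and the call was lost there with no filter (adjusted p = 0.0563).

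The other members of that set were lower by less than 1.5-fold: Grn, the progranulin precursor (-0.34), Lipa, the acid lipase (-0.30), and Psap, the precursor of the saposins that present lipids to hydrolases (-0.24). All 3 turned positive on TPM, to 0.10 for Grn, 0.04 for Lipa and 0.14 for Psap. The call of Lipa was also lost without adult replicate 1, fetal replicate 1 or fetal replicate 2 (adjusted p = 0.148, 0.0503 and 0.0825).

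Because TPM is per gene length, it also shows the make-up of the lysosomal transcript pool, and a share within 1 library does not depend on the scaling between libraries. The summed TPM of the 39 genes was 1788 and 1761 in adult and 2925 and 2853 in fetal libraries, and their summed TMM-scaled CPM was 2951 and 2902 against 3377 and 3383, so the size of that difference depends on the scale. Lamp1 had the highest TPM of the 39 genes in both adult libraries, with 12.7% and 12.5% of the sum, followed by Ctsb with 9.95% and 9.52% and Cd63 with 9.15% and 9.14%. In both fetal libraries Ctsh came first, with 14.5% and 14.4%, from ranks 15 and 19 in adult, where it held 2.12% and 1.58%. Lamp1 was second with 9.53% and 9.91%, and Ctsl and Ctsd came next, ahead of Ctsb. The TPM ratio of Ctsh to Ctsb was 0.213 and 0.166 in adult and 2.46 and 2.46 in fetal libraries. The ratio of Ctsl to Ctsb went from 0.208 and 0.220 to 1.42 and 1.46, so that the order of both cathepsins against Ctsb was turned in each fetal library. Among glycosidases, Gusb and Hexa had near-equal levels in adult (ratio 1.22 and 1.21), and Gusb was 10.9 and 13.4 times Hexa in fetal libraries. These ratios are descriptions and were not tested.

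**Figure D3:**
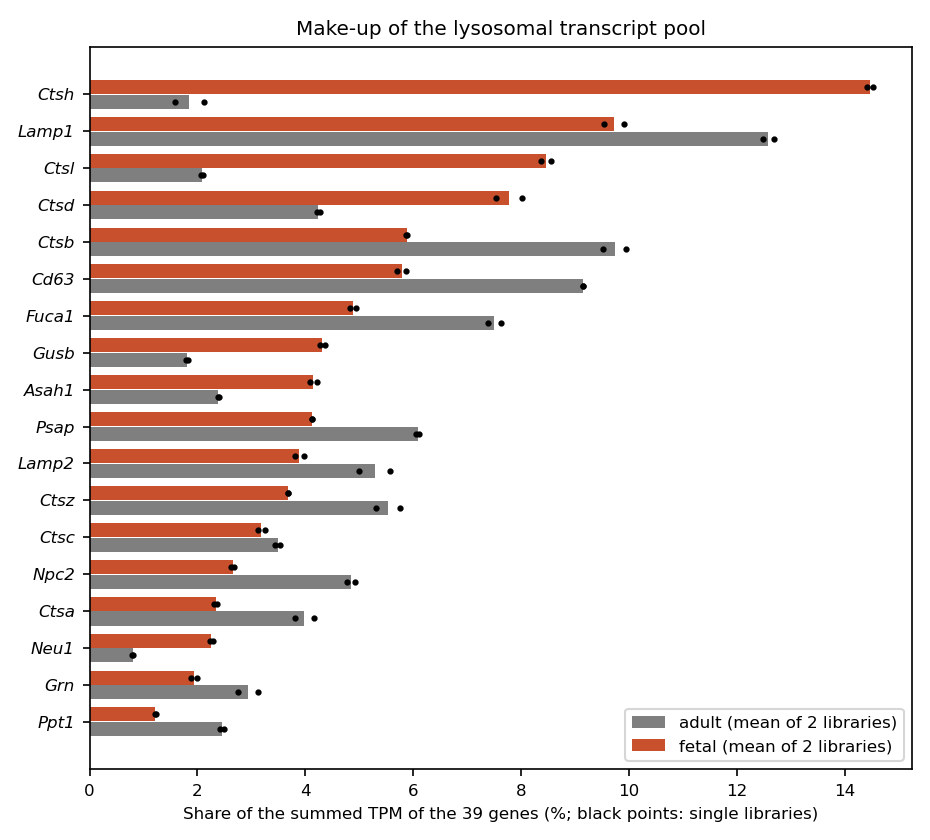
Share of the summed TPM of the 39 genes (x axis, %) for genes with a mean share of at least 2% at either age; bars are means of 2 adult (grey) or 2 fetal (red) libraries and black points single libraries. Ctsh rises from 1.85% to 14.5%, while Lamp1 goes from 12.6% to 9.72% and Ctsb from 9.73% to 5.88%.

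The genes for protein uptake did not move together: Cubn, Lrp2 and Dab2 were higher in fetal organoids and Amn was lower. Cubilin (Cubn) is a large peripheral receptor without a membrane span of its own, amnionless (Amn) anchors it and brings it to the apical membrane, megalin (Lrp2) is a giant endocytic receptor that works with both, and Dab2 is the adaptor that links these receptors to clathrin. Cubn had 7 and 14 counts (0.614 and 1.41 CPM) in adult and 188 and 179 counts (13.1 and 13.6 CPM) in fetal libraries, 13.5-fold higher in fetal (log2 fold change 3.75 ± 0.34 SE, adjusted p = 5.98e-08). The adult counts were low and differed between libraries, and the log2 fold change was 3.24 without adult replicate 1 and 4.42 without adult replicate 2. Lrp2 had 3 and 2 counts in adult and 385 and 362 counts in fetal libraries (26.9 and 27.6 CPM), a log2 fold change of 6.80 ± 0.54 SE (adjusted p = 5.33e-11). On log2(TPM + 1) the difference was 1.90, because the added 1 shrinks differences at such low levels. Lrp2 stood at 0.02 TPM in each adult library and at 2.79 and 2.81 TPM in fetal ones. Lrp2 was nearly undetected in adult organoids and present at a like level in both fetal libraries.

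Dab2 had 0 and 2 counts in adult and 58 and 42 counts in fetal libraries. The ratio of its summed counts was 38.9, with an exact 95% interval of 10.5 to 326 (Clopper-Pearson, counting error only), and the fitted log2 fold change ran from 4.11 without adult replicate 1 to 8.56 without adult replicate 2. Amn had 75 and 98 counts (6.57 and 9.84 CPM) in adult and 9 and 11 counts (0.629 and 0.837 CPM) in fetal libraries. It was 11.0-fold lower in fetal (log2 fold change -3.46 ± 0.39 SE, adjusted p = 1.13e-06), in the direction opposite to Cubn, Lrp2 and Dab2. Per length, Cubn stood at 0.07 and 0.15 TPM against 4.88 and 7.25 TPM of Amn in adult libraries, and at 1.87 and 1.89 TPM against 0.70 and 0.80 TPM in fetal libraries. The TPM ratio of Cubn to Amn thus went from 0.0143 and 0.0207 to 2.67 and 2.36. Exons of Cubn and Dab2 overlap a non-coding gene model or pseudogene on the opposite strand, and no source used here says whether counting used the strand.

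Markers of other cell types moved in part with the uptake genes. Mesenchymal markers summed to 5.08 and 5.82 CPM over 11 genes in adult and 69.3 and 67.1 CPM in fetal libraries, with 6 of 7 tested higher. The 6 genes at 0 counts in both adult libraries included Col1a2, Col3a1 and Dcn. Macrophage markers summed to 8.59 and 8.23 CPM over 14 genes in adult and 24.7 and 25.8 CPM in fetal libraries, with 4 higher and 1 lower of 5 tested. Tyrobp had 3 and 0 counts and C1qc 2 and 1 in fetal libraries, both had 0 in adult ones, and the higher genes were Cd68, Lyz2, Mrc1 and Cd14. Their part in the rise of Dab2 and Lrp2 was not tested, and in bulk RNA fewer cells of a type and less RNA per cell cannot be told apart. In the visceral endoderm, another epithelium known for cubilin and megalin, Afp and Ttr are typical. Both were lower in fetal organoids, Ttr from 317 and 283 to 5 and 12 counts, and Rhox5 had 2 counts in each adult and 10 in each fetal library.

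Other genes known from vacuolated enterocytes of the newborn did not form a block. Ass1, the arginine synthesis enzyme of the suckling gut, rose from 71 and 56 to 1514 and 1419 counts (log2 fold change 4.17), and Prdm1, a transcription factor of neonatal enterocytes, from 25 and 22 to 66 and 63 counts (log2 fold change 1.09). Maf, a regulator of these cells, was lower, with 24 and 18 counts in adult and 13 and 7 in fetal libraries. Fcgrt, the neonatal receptor for immunoglobulin G, had 10 and 12 counts in adult and 7 and 2 in fetal libraries and was not tested. The neonatal endosomal channel Mcoln3 had 0 counts in adult and 3 and 0 in fetal libraries, too few to test.

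The MiT/TFE factors, which bind the CACGTG letters shown above, moved in different directions. Tfeb had 9.64 and 10.0 CPM in adult and 5.45 and 4.26 CPM in fetal libraries, 2.01-fold lower in fetal (log2 fold change -1.01 ± 0.18 SE, adjusted p = 0.000287). On TPM the groups came close, at 8.49 and 10.25 in adult and 8.74 and 6.58 in fetal libraries, overlapped, and the call was lost (log2 fold change -0.27, adjusted p = 0.24). The number of counts behind 1 TPM, which follows the estimated mean transcript length, was lower for Tfeb in both fetal libraries, with a log2 difference of -0.33 relative to other genes, where the 5th to 95th percentile range over 10862 genes was -0.19 to 0.17. Of the 33 of the 39 genes with enough counts for this measure, Manba was the only other one outside that range (-0.29). Tfe3 had 24.8 and 31.0 CPM in adult and 34.4 and 40.6 CPM in fetal libraries (log2 fold change 0.43 ± 0.11 SE, adjusted p = 0.00308), a rise of less than 1.5-fold without overlap of the groups. Mitf had 0 and 1 counts in adult and 5 and 3 in fetal libraries, too few to test (ratio 6.23, exact 95% interval 0.835 to 276). Of the melanocyte markers, cells known for Mitf, Tyrp1 and Mlana had 0 counts in every library, Dct was lower and Pmel was not called. By TPM, Tfe3 was above Tfeb in every library, with a ratio of 1.29 and 1.28 in adult and 2.21 and 3.35 in fetal libraries.

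Genes that tie these factors to nutrient signals gave 5 higher and 5 lower of 14 tested, and included a large fall. The counts were 35.7% each, near the 33.9% and 32.7% of all genes. Rragd, a Rag GTPase that recruits the kinase mTORC1 and the MiT/TFE factors to lysosomes and is itself a known target of those factors, had 87.2 and 83.0 CPM in adult and 2.03 and 2.28 CPM in fetal libraries. It was 39.4-fold lower in fetal (log2 fold change -5.30 ± 0.16 SE, adjusted p = 2.97e-13). Its relative Rragb went from 0.263 and 0.301 to 2.72 and 2.51 CPM (log2 fold change 3.18 ± 0.57 SE). Fnip1, a partner of folliculin in the control of the Rag GTPases, fell from 68.0 and 68.1 to 30.5 and 27.9 CPM, and Lamtor5, a subunit of the complex that anchors them, rose from 18.2 and 16.8 to 28.7 and 26.9 CPM.

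Beyond the 39 genes, the other lysosomal hydrolases gave 7 higher and 20 lower of 36 tested (19.4% and 55.6%, beside 33.9% and 32.7% of all genes). Their median log2 fold change was -0.27. With library totals they gave 10 and 9 (27.8% and 25%, beside 48.9% and 20.8% of all genes). On TPM they gave 9 and 8 (25% and 22.2%, beside 49.6% and 12.8% of all genes). Acp5, the tartrate-resistant acid phosphatase, fell from 38.8 and 36.2 to 13.1 and 12.3 CPM. Ctse, an endosomal aspartic protease related to Ctsd, rose from 1.05 and 0.602 to 11.1 and 10.9 CPM (log2 fold change 3.69 ± 0.34 SE), and Pla2g15, a lysosomal phospholipase, from 2.63 and 2.91 to 6.15 and 6.32 CPM. Other lysosomal membrane proteins gave 4 higher and 13 lower of 25 (16% and 52%, median log2 fold change -0.19). The counts were 9 and 9 with library totals (36% and 36%) and 9 and 5 on TPM (36% and 20%), beside the same shares of all genes. Mcoln2, an endolysosomal cation channel, fell from 7.71 and 8.84 to 0.279 and 0.609 CPM (log2 fold change -4.21, and -4.84 without fetal replicate 2), and Abcb9, a peptide transporter, from 5.17 and 5.22 to 0.419 and 0.457 CPM. Ostm1, the partner of the lysosomal chloride exchanger, and Mfsd12, a cysteine importer, were higher (0.67 and 0.66), the call of Mfsd12 being lost without adult replicate 1 (adjusted p = 0.0722).

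The vacuolar proton pump, which acidifies lysosomes, had 12 higher and 2 lower of 20 tested (60% and 10%, beside 33.9% and 32.7% of all genes; median 0.23). The counts were 17 and 1 with library totals (beside 48.9% and 20.8% of all genes) and 16 and 1 of 19 on TPM (beside 49.6% and 12.8%). Of the 12, Atp6v0e2 rose from 0.351 and 0.703 to 10.2 and 6.78 CPM and Atp6v0a4 from 0.701 and 0.1004 to 1.47 and 1.83 CPM, and the others were under 2-fold. The call of Atp6v0a4 was lost without adult replicate 2 or fetal replicate 2 (adjusted p = 0.108 and 0.0505), and its log2 fold change of 1.95 became 3.90 without adult replicate 1. Atp6ap2, an accessory subunit also known as the prorenin receptor, fell from 120 and 114 to 67.2 and 71.4 CPM. Atp6v0a2 was called lower (-0.18), lost the call without adult replicate 1 or fetal replicate 1 (adjusted p = 0.0567 and 0.0657), and turned positive with library totals (0.07) and on TPM (0.16).

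Sorting genes gave 7 higher and 6 lower of 26 tested (26.9% and 23.1%, beside 33.9% and 32.7% of all genes). With library totals they gave 15 and 3 (57.7% and 11.5%, beside 48.9% and 20.8% of all genes). On TPM they gave 13 and 2 (50% and 7.69%, beside 49.6% and 12.8% of all genes). Igf2r, a receptor that carries tagged hydrolases from the Golgi, rose from 199 and 195 to 290.1 and 290.2 CPM. Vamp8, a fusion protein of late endosomes, rose from 27.2 and 27.8 to 39.9 and 42.9 CPM. Gnptab, which makes the mannose 6-phosphate tag, fell from 112 and 111 to 71.4 and 69.4 CPM, and Sort1, another sorting receptor, from 107 and 115 to 64.3 and 63.3 CPM. Igf2r, which binds the tag, and Gnptab, which makes it, were thus called in opposite directions.

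Endocytosis genes gave 13 higher and 9 lower of 23 tested (56.5% and 39.1%, beside 33.9% and 32.7% of all genes). With library totals they gave 15 and 5 (65.2% and 21.7%, beside 48.9% and 20.8% of all genes). On TPM they gave 18 and 2 (78.3% and 8.7%, beside 49.6% and 12.8% of all genes). Clcn5, the endosomal chloride exchanger needed for megalin-dependent uptake in the kidney, rose from 72.7 and 68.2 to 188 and 188 CPM (log2 fold change 1.41 ± 0.05 SE). Lrp1, a relative of Lrp2, fell from 29.6 and 31.8 to 9.15 and 7.61 CPM (log2 fold change -1.87, but -0.65 on TPM, where the call was lost with no filter, adjusted p = 0.0949), and Tcn2, the vitamin B12 carrier of plasma, from 38.04 and 33.8 to 16.2 and 17.7 CPM. Autophagy genes gave 4 higher and 6 lower of 17 (23.5% and 35.3%), all under 2-fold. The counts were 7 and 2 with library totals (41.2% and 11.8%) and 8 and 1 on TPM (47.1% and 5.88%), beside the same shares of all genes. Optn, a cargo receptor, fell from 41.3 and 41.5 to 21.0 and 21.1 CPM, and Ulk1, the initiating kinase, from 33.7 and 34.0 to 17.96 and 17.3 CPM, a call that was lost on TPM (adjusted p = 0.0728). The ubiquitin-like proteins Gabarapl1 and Gabarapl2 were higher by less than 1.5-fold (0.37 and 0.36).

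**Figure D4:**
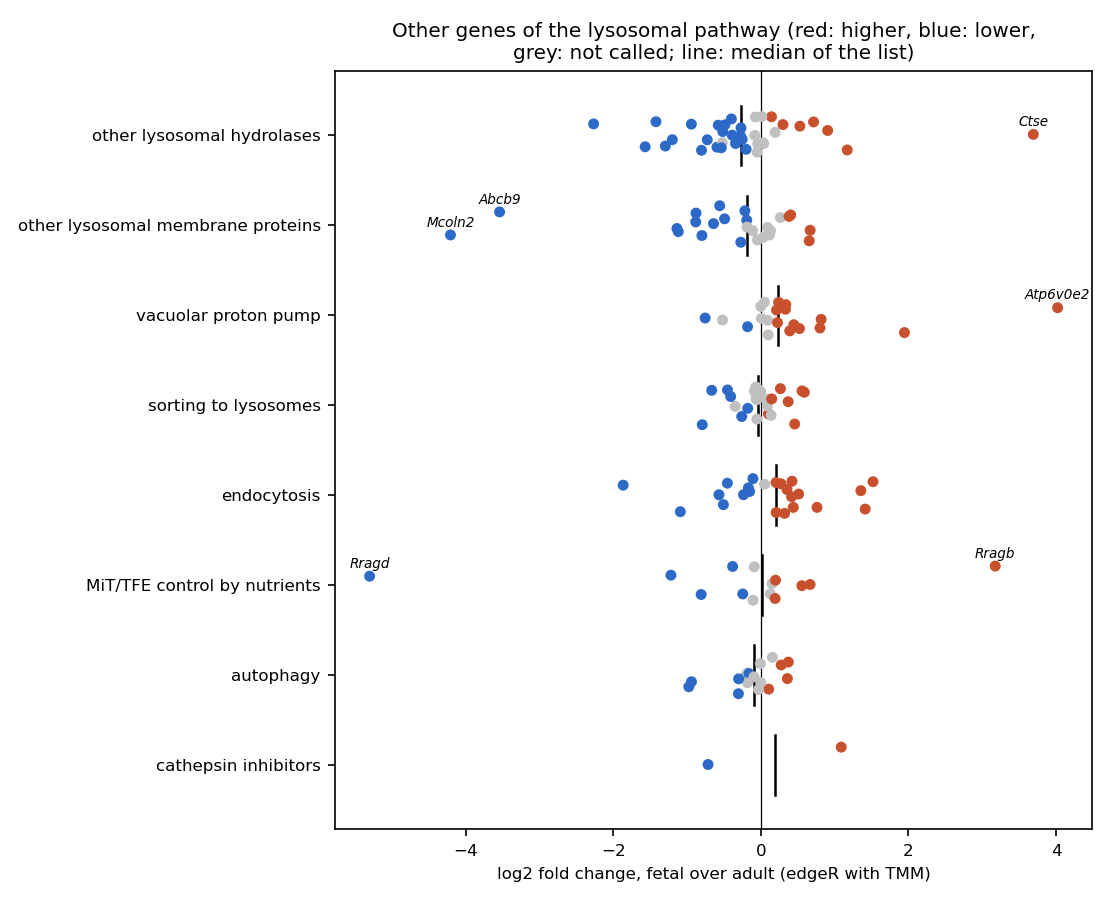
Log2 fold change (x axis, fetal over adult, edgeR with TMM) of tested genes in the 8 further lists of the lysosomal pathway (y axis); each point is 1 gene, red if called higher, blue if called lower and grey if not called, and each line is the median of its list. Rragd at -5.30 and Mcoln2 at -4.21 lie farthest to the left, and Atp6v0e2 at 4.02 and Ctse at 3.69 farthest to the right.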

How the data were processed

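The authors deposited, per Ensembl gene, values that the file headers call expected counts (estimated counts, not normalized). They also deposited TPM, which the authors scaled per gene length and library size. The submitters' processing notes name FastQC, Trim Galore, STAR 2.7.3a, RSEM 1.3.3 and the builds GRCm39 and mm10, without roles. Which build, annotation and strand setting made the tables is not stated in any source at hand, so no coordinates are printed from the tables, and those of the promoters are RefSeq positions in GRCm38.p6. Symbols came from GENCODE M21 (52083 of 55416 identifiers), and of 266 list entries only Vamp7 was not matched. In that annotation exons of 13 of the 39 genes overlap another gene, 3 on the same strand (Ctsd, Ctsl and Glb1) and 11 on the opposite strand (Ctsa, Ctsb, Ctsl, Ctsz, Cubn, Dab2, Grn, Hexa, Lamp1, Npc1 and Ppt1), and their counts are uncertain to that extent.

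Counts were rounded and tested over all genes in edgeR 4.0.16 (R 4.3.3) with filterByExpr, TMM and the quasi-likelihood F-test, fetal against adult, and Benjamini-Hochberg adjustment over 14271 genes. Values are TMM-scaled CPM, and SE comes from the fitted means and dispersions. The floor of 3 counts lay at 0.21 to 0.301 CPM. Alternatives used DESeq2 1.42.0 and limma 3.58.1, 16 in all. The steps were tested on simulated data. Few genes were changed there, in both directions and with no shift in make-up, so the choice of scaling was not checked. Same-group libraries differed beyond sampling noise (chi-square per degree of freedom 3.30 and 2.81), so no library was a copy of another; this does not show separate cultures or animals.

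The 39 genes, the 15 other lists and the tests were chosen with earlier results of these data known. Library values are given for the 39 genes called with at least a 1.5-fold change and for the uptake and MiT/TFE genes. In each pathway list the 2 called genes with the largest change in each direction are named, provided the age with the higher level reached 1 CPM. A few list genes that this rule selects, or that markers include, are counted in their lists and not reported here by name. Marker genes, Lamp1 and Ctsb, and the genes named from counts near 0 were chosen after their values were seen.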

Additional observations from a re-analysis of the deposited data

How the results depend on the processing

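Of 16 alternatives, DESeq2 size factors, upper-quartile scaling, TMM without mitochondrial and the top 20 genes, no filter, a filter of 1 CPM in 2 libraries and the replicate block kept the call of each of the 68 genes followed, and the cause of the changes under other settings was not tested. The fit with the replicate number as a block gave 15 higher and 18 lower of the 38 genes; the numbers are not stated to pair samples, and deviations of same-numbered libraries had a correlation of -0.014. With library totals, 2973 of all genes were lower, as were 10 of the 38, 9 other hydrolases, 1 proton pump gene and 5 endocytosis genes; 9 other membrane proteins were higher, sorting genes gave 15 higher and 3 lower, nutrient control of MiT/TFE 8 and 3, and autophagy 7 and 2. Directions turned there for Lamp1 (0.19), Lamp2 (0.04), Scarb2 (0.13), Gla (0.21) and Atp6v0a2 (0.07). On log2(TPM + 1), 1796 of all genes were lower, with 6 of the 38, 8 other hydrolases, 1 proton pump gene, 2 endocytosis genes, 3 nutrient control genes and 0 cathepsin inhibitors; other membrane proteins gave 9 higher and 5 lower, sorting 13 and 2, and autophagy 8 and 1. Directions turned for Lamp1 (0.33), Lamp2 (0.26), Cd63 (0.04), Scarb2 (0.26), Ctsz (0.12), Gla (0.28), Man2b1 (0.10), Fuca1 (0.08), Lipa (0.04), Psap (0.14), Grn (0.10) and Atp6v0a2 (0.16). With a pseudocount of 0.1, 1752 of all genes were lower, the list counts just given were the same (6, 8, 1, 2, 3 and 0 lower, then 9 and 5, 13 and 2, 8 and 1), and the turned values were 0.33 for Lamp1, 0.26 for Lamp2, 0.04 for Cd63, 0.27 for Scarb2, 0.12 for Ctsz, 0.31 for Gla, 0.10 for Man2b1, 0.08 for Fuca1, 0.05 for Lipa, 0.14 for Psap, 0.11 for Grn and 0.17 for Atp6v0a2. On log2(TPM + 1) with no filter, 1728 of all 27355 genes tested were lower, with 5 of the 39 (Mitf was tested here). Lower too were 8 other hydrolases, 1 proton pump, 1 endocytosis and 1 autophagy gene and 0 cathepsin inhibitors. Other membrane proteins gave 7 higher and 4 lower, sorting 13 and 2, and nutrient control 8 and 2. The values that turned were those of log2(TPM + 1). DESeq2's own test gave 10 other hydrolases lower, 1 proton pump gene lower and 3 higher and 3 lower nutrient control genes, and it did not call Lgmn, Lipa, Smpd1 and Atp6v0a2 (adjusted p = 0.0687, 0.164, 0.0586 and 0.0705). Tested against a change of 1.5-fold (glmTreat), 2137 of all genes were higher and 1922 lower, with 6 of the 38 lower; higher and lower were 3 and 7 other hydrolases, 0 and 6 other membrane proteins, 4 and 1 proton pump, 0 and 1 sorting, 4 and 2 endocytosis, 1 and 3 nutrient control and 0 and 2 autophagy genes, with 0 cathepsin inhibitors lower, as follows from a stricter test. With single libraries left out, 14 to 15 of the 38 were higher and 17 to 19 lower, proton pump genes lower ranged from 1 to 2, nutrient control genes higher from 3 to 5, and Gla from -0.10 to 0.01. Low counts (Ctss and Amn in fetal, Cubn, Dab2 and Lrp2 in adult libraries) leave the size of those changes imprecise.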
